A study of Mus musculus with 21 samples.

Results

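The 8 genes described here encode the core of the phosphoinositide 3-kinase (PI3K) and Akt pathway: the catalytic subunits Pik3ca, Pik3cb, Pik3cd and Pik3cg, the regulatory subunits Pik3r1 and Pik3r5, and the kinases Akt1 and Akt2. They were taken by name, as the rows of the estimated-count table whose Ensembl gene ID maps to these symbols, and the choice of the 8 was made with earlier results of these data known. They are 8 of 23250 genes in the table, and all 8 passed the filter on low counts that left 13468 genes for testing. Their estimated counts per library ran from 261 to 21832.

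RNA was sequenced from macrophages grown out of mouse bone marrow (C57BL/6J background) for 7 days in medium with 2.5% supernatant of a cell line that makes GM-CSF, a growth factor for myeloid cells. The series describes the treated macrophages as deficient in the mannose receptor (MR), and Mrc1, the gene of that receptor, had 0 to 11 counts in the 21 libraries. Cells received FcMR, in which the part of MR that lies outside the cell is fused to the Fc region of human IgG1, or an isotype control protein, each for 4, 12 or 24 h. A seventh group was untreated (0 h). Each of the 7 groups holds 3 libraries. The labels do not say whether the 3 came from separate mice or cultures, so p-values measure the spread between these libraries, which may be technical. The study asked what soluble MR does to macrophages, so FcMR against isotype at each time is the main comparison. Untreated cells are the 0 h group, so isotype against untreated holds the control protein and the further time in culture together, and the 2 cannot be told apart.

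Library totals ran from 5532225 to 66729533 estimated counts. All 6 macrophage markers had counts in every group. Levels of genes are given in CPM, a gene's counts relative to the TMM-scaled total of its library. For the cell type markers in this paragraph, CPM is relative to the plain library total, without TMM scaling. On that plain scale the summed level of the 6 macrophage markers was lower with FcMR than with isotype at each time, without overlap. It was 1835 to 2007 against 2181 to 2256 CPM at 4 h and 2983 to 3127 against 3253 to 3498 CPM at 12 h. At 24 h it was 4245 to 4408 against 4811 to 5001 CPM. The marker sums of this paragraph were not compared on the TMM scale of the members' levels, where the separation may differ. The sum of 4 fibroblast markers was higher with FcMR, at 3.81 to 5.03 against 2.16 to 3.8 CPM at 4 h, 10.2 to 16 against 2.09 to 2.85 CPM at 12 h and 8.1 to 10.9 against 0.345 to 1.47 CPM at 24 h. Of these 4, Pdgfrb reached 13.9 CPM, while Col1a1, Col3a1 and Dcn reached at most 1.63, 0.288 and 3.61 CPM and the last 2 were at 0 in some libraries. The sum of 5 dendritic cell markers lay between 1408 and 1828 CPM in all 21 libraries, with 1478 to 1642 CPM in the untreated ones. At 24 h it was 1641 to 1718 CPM with FcMR and 1499 to 1620 CPM with isotype. The sum of 3 erythroid markers was 0.125 to 2.85 CPM with FcMR and 2.94 to 21.5 CPM with isotype at 4 h. The part of these marker differences in the FcMR against isotype results was not tested. The summed level of 7 neutrophil markers fell from between 1565 and 1762 CPM in untreated libraries to between 192 and 238 CPM at 24 h in both arms; its part in the changes against untreated was not tested. In bulk RNA, fewer cells of a type and less RNA per cell cannot be told apart. T cell markers summed to at most 0.712 CPM. Libraries also differed in how GC-rich transcripts were represented. The GC tilt of a library, the mean log2 deviation of the 10% most GC-rich genes minus that of the 10% most GC-poor genes, ran from -1.65 to 0.85. The tilts differed widely within 3 groups: the isotype 4 h libraries had -0.85, -1.65 and 0.66, the FcMR 12 h libraries -0.75, 0.75 and 0.84, and the FcMR 24 h libraries -0.37, -1.32 and 0.43.

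PI3K enzymes phosphorylate the membrane lipid PIP2 to PIP3. PIP3 draws Akt to the membrane, where PDK1 and mTORC2 activate it, and Akt then acts on targets such as FoxO transcription factors, GSK3 and the TSC complex. Class IA enzymes pair a catalytic subunit (alpha, beta or delta) with a regulatory subunit such as the product of Pik3r1 and work below tyrosine kinases, cytokine receptors and Fc receptors. The class IB enzyme pairs the gamma catalytic subunit with the product of Pik3r5 or Pik3r6 and works below G protein-coupled receptors, including chemokine receptors. In macrophages the pathway bears on survival, migration, phagocytosis and inflammatory signalling. SHIP1 (Inpp5d) is one of the phosphatases that remove the lipid signal. These data hold transcript levels only, not lipid levels or phosphorylation.

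After FcMR, the gamma catalytic subunit and the class IA regulatory subunit stood out among the 8 genes. Pik3r1 was higher than with isotype at all 3 times, by 0.62, 0.39 and 0.37 on the log2 scale. Pik3cg was not called at 4 h and was higher at 12 and 24 h, by 0.44 and 0.61. Pik3ca was higher at 24 h, by 0.35. No member was called lower after FcMR in this fit, whereas at an unadjusted p under 0.05 there were 0, 1 and 1 lower members at 4, 12 and 24 h. By edgeR's quasi-likelihood test at a Benjamini-Hochberg adjusted p under 0.05, 1 of the 8 was called at 4 h, against 17.7% of all genes tested (8.62% higher, 9.13% lower). At 12 h, 2 of 8 were called, against 16.1% of all genes (8.61% higher, 7.49% lower). At 24 h, 3 of 8 were called, against 20.9% of all genes (11.4% higher, 9.44% lower). With 8 members, these counts lie near the background. Without isotype 4 h replicate 3, the library with the tilt of 0.66, Pik3r5 and Akt2 were called at 4 h as well, 3 of 8. The median difference over the 8 was 0.16, -0.04 and 0.01 at 4, 12 and 24 h, beside -0.07, -0.02 and 0.01 over all genes tested.

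**Figure D1:**
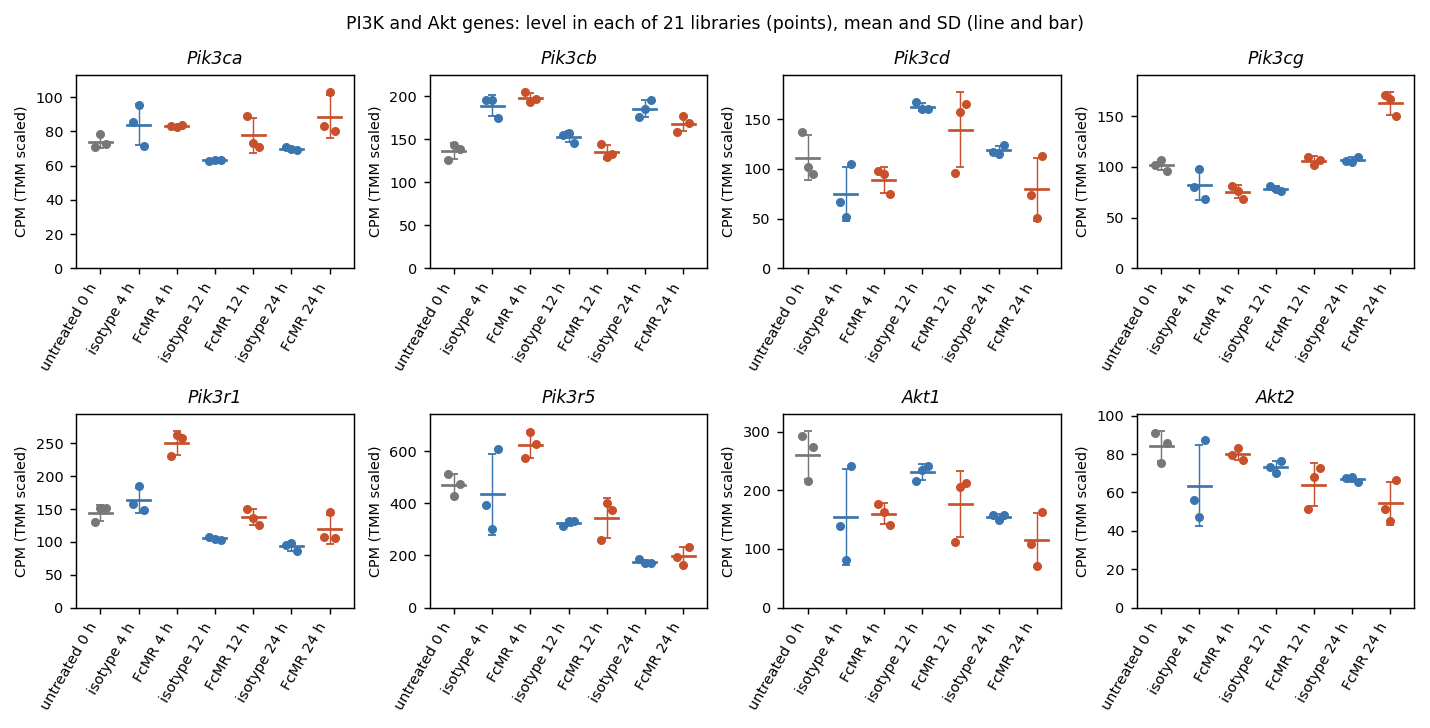
Level of each of the 8 genes (CPM, TMM scaled, vertical axis from 0) in the 7 groups; points are libraries, lines are means of 3 and bars are SD. The 3 FcMR 24 h libraries of Pik3cg sit between 150 and 171 CPM, above the other 18 libraries, whereas Akt1 spreads from 71.4 to 163 CPM within the same group.

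Pik3cg (ENSMUSG00000020573.17, GRCm38 chromosome 12, 32173473 to 32208659, minus strand) encodes the catalytic subunit of the class IB enzyme. Its level was 102, 107 and 96.4 CPM in the untreated libraries. With isotype it was 80, 97.8 and 68.7 CPM at 4 h, 81, 78 and 76.1 CPM at 12 h, and 106, 105 and 110 CPM at 24 h. With FcMR it was 81, 76.5 and 68.4 CPM at 4 h, 110, 102 and 107 CPM at 12 h, and 171, 167 and 150 CPM at 24 h. The FcMR and isotype libraries overlapped at 4 h and were fully separate at 12 and 24 h. The difference was -0.12 ± 0.10 at 4 h (log2, SE; adjusted p = 0.473), 0.44 ± 0.10 at 12 h (adjusted p = 0.00438) and 0.61 ± 0.10 at 24 h (adjusted p = 0.000217), all from edgeR. At 12 and 24 h the call held in all 11 alternative settings, with adjusted p up to 0.0125 and 0.00439, and with each library of the 2 groups left out in turn. In this fit it was the only member for which the FcMR minus isotype difference itself differed between the 3 times (edgeR, adjusted p = 0.00571), against 11% of all genes. Without FcMR 4 h replicate 3, that test gave an adjusted p of 0.0744.

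Pik3cg and Pik3r5 form one enzyme, so the 250 bases before their annotated start sites are shown beside each other, as given by RefSeq (GRCm38.p6). The window of Pik3cg, at chr12:32208660-32208909 (minus strand), has 38.8% GC and 3 CG pairs. That of Pik3r5, at chr11:68431875-68432124 (plus strand), has 61.6% GC and 14 CG pairs. Capitals mark the GC box GGGCGG on either strand, and its reverse complement is CCGCCC.
Pik3cg: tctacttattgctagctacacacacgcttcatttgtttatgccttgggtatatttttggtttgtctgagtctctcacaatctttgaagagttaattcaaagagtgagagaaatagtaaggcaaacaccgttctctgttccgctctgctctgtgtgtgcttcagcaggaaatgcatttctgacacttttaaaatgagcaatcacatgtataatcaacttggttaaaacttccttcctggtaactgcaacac
Pik3r5: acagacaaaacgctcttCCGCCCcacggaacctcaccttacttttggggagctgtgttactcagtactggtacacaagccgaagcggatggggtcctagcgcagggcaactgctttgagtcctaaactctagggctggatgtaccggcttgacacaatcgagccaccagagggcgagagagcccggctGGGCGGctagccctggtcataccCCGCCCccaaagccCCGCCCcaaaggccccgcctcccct
Pik3r5 has 4 such matches and this window of Pik3cg has none. Over 32851 windows of this length, 32.7% held a GC box, and the median window had 52.4% GC and 6 CG pairs. A later start site of Pik3cg, whose window overlaps the first, has a match to the PU.1 letters GAGGAAGT (in 2.44% of windows) and one to the FoxO letters GTAAACA (in 3.17%). The first window of Akt1 also has a match to the FoxO letters, 161 bases before its start site. A match is a run of letters, not a measured binding site. The search also covered a 10-base NF-kB consensus and the AP-1 (TGANTCA), CRE (TGACGTCA) and E-box (CACGTG) letters on both strands, and among these it found only an AP-1 match, in Pik3ca. For this Pik3ca window and the Pik3cb window, the bases after the start site matched no opening of a GENCODE M21 transcript of the gene. All 8 genes matched the RefSeq table, with 16 windows in all. Pik3r5 and Pik3r1 were added for printing after their values were seen.

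Pik3ca (ENSMUSG00000027665.13, chromosome 3, 32397671 to 32468486, plus strand) encodes the widely expressed alpha catalytic subunit. At 24 h it was at 70.7, 69.8 and 69.1 CPM with isotype and at 83, 103 and 80.1 CPM with FcMR. The arms did not overlap, and FcMR replicate 2, the library with the tilt of -1.32, was the highest. The difference was 0.35 ± 0.11 (log2, SE; adjusted p = 0.03, edgeR). The call was lost without FcMR 24 h replicate 2 (0.23, adjusted p = 0.217), without isotype 24 h replicate 1, 2 or 3 (adjusted p = 0.0804, 0.0868 and 0.0948) and with the GC correction, an offset per library fitted on transcript GC (0.22, adjusted p = 0.0607). It was also lost with RLE factors (the scaling of DESeq2), no filter on low counts, the authors' factors or only the compared libraries (adjusted p = 0.0559, 0.0551, 0.368 and 0.0979). At 12 h the arms did not overlap either, at 63, 63.2 and 63.2 CPM with isotype and 89.3, 73.2 and 70.7 CPM with FcMR, and the difference of 0.30 had an adjusted p of 0.0739 (edgeR).

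Pik3cb (ENSMUSG00000032462.14, chromosome 9, 99036654 to 99140621, minus strand) encodes the beta catalytic subunit. It differed by 0.07, -0.17 and -0.14 from isotype at 4, 12 and 24 h and was not called (edgeR, adjusted p = 0.599, 0.168 and 0.228). Its libraries ran from 146 to 158 CPM with isotype and from 129 to 145 CPM with FcMR at 12 h, without overlap. With the GC correction the differences at 12 and 24 h were -0.26 and -0.23 and were called (adjusted p = 0.0227 and 0.0361). Of the 31-base words of its transcripts, 6.4% also occur in other genes, chiefly Gm12992 and Gm12978, which had at most 32 and 65 counts.

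Pik3cd (ENSMUSG00000039936.18, chromosome 4, 149649168 to 149702571, minus strand) encodes the delta catalytic subunit, which is concentrated in white blood cells. At 24 h it was at 117, 115 and 124 CPM with isotype and at 74.1, 50.5 and 113 CPM with FcMR. All 3 FcMR libraries were lower, in the order of their tilts, and the difference of -0.59 ± 0.27 was not called (log2, SE; adjusted p = 0.148, edgeR). With the GC correction it was -0.47 ± 0.11 and was called (adjusted p = 0.00265). Without FcMR 24 h replicate 3 it was -0.92 (adjusted p = 0.0183).

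Pik3r1 (ENSMUSG00000041417.15, chromosome 13, 101680563 to 101768217, minus strand) encodes the main class IA regulatory subunit, which stabilises the catalytic subunit and holds it back until it binds phosphotyrosine. Its level was 157, 185 and 148 CPM with isotype and 230, 263 and 258 CPM with FcMR at 4 h. At 12 h it was 108, 105 and 103 CPM with isotype and 150, 137 and 126 CPM with FcMR. At 24 h it was 94.8, 98.8 and 85.5 CPM with isotype and 107, 145 and 106 CPM with FcMR. The arms did not overlap at any of the 3 times, and the 3 FcMR 4 h libraries were the highest of all 21. The differences were 0.62, 0.39 and 0.37 with SE of 0.12 each (log2; adjusted p = 0.00131, 0.0317 and 0.0357, edgeR). A change of the difference between the times was not called (adjusted p = 0.546) and was called with the GC correction (0.71, 0.27 and 0.24, adjusted p = 0.0127). The call at 4 h was lost only when the authors' normalisation factors were used (0.53, adjusted p = 0.0902). At 12 h it was lost without FcMR replicate 1 or 2 (adjusted p = 0.149 and 0.0808) or isotype replicate 1, 2 or 3 (0.085, 0.098 and 0.111), and with the authors' factors (0.14). At 24 h it was lost without FcMR replicate 2 (0.20, adjusted p = 0.274) or isotype replicate 1, 2 or 3 (0.0815, 0.0527 and 0.149), and with RLE factors, no filter, the authors' factors or only the compared libraries (0.0526, 0.0642, 0.206 and 0.143).

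The window before the first start site of Pik3r1 (chr13:101768218-101768467, minus strand) is shown because the gene was higher after FcMR at every time, and that of Akt2 (chr7:27591302-27591551, plus strand) because it had the smallest p for a changing difference after Pik3cg. Capitals again mark the GC box on either strand.
Pik3r1: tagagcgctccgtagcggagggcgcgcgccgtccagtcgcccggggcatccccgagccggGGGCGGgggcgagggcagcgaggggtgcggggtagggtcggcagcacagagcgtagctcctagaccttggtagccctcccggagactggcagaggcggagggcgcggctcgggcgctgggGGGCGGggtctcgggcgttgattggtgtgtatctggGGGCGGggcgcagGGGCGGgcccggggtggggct
Akt2: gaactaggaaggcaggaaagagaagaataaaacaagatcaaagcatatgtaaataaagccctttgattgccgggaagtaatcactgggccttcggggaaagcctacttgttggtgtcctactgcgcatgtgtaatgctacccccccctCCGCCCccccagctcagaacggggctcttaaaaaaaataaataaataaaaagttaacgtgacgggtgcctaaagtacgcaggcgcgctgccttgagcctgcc
Pik3r1 has 76.4% GC, 30 CG pairs and 4 GC boxes, and Akt2 has 48.8% GC, 10 CG pairs and 1 GC box. Of the 4 windows printed, that of Pik3cg is the lowest and that of Pik3r1 the highest in GC. Among the windows not printed, that of Pik3cb has 78% GC and the second of Akt1 has 78.4%. The second window of Pik3r1 has 42.4% GC and no GC box. The order thus depends on the windows chosen, and no link of GC to the response was tested.

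Pik3r5 (ENSMUSG00000020901.13, chromosome 11, 68432121 to 68497849, plus strand) encodes the large regulatory partner of the gamma subunit. At 4 h it was at 394, 301 and 607 CPM with isotype and at 574, 675 and 626 CPM with FcMR. The isotype library with the tilt of 0.66 lay among the FcMR libraries and the other two lay below them. The difference of 0.53 ± 0.20 was not called (log2, SE; adjusted p = 0.0788, edgeR). With the GC correction Pik3r5 was called higher after FcMR at all 3 times, by 0.45, 0.22 and 0.30 (adjusted p = 2.75e-05, 0.0167 and 0.00138). Without isotype 4 h replicate 3 the 4 h difference was 0.85 (adjusted p = 0.00205) and the change between times had an adjusted p of 0.0488.

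Akt1 (ENSMUSG00000001729.14, chromosome 12, 112653821 to 112674884, minus strand) is the most widely expressed Akt kinase and bears on growth and survival. It was at 139, 81.7 and 242 CPM with isotype at 4 h and at 176, 163 and 141 CPM with FcMR. At 24 h it was at 158, 149 and 158 CPM with isotype and at 109, 71.4 and 163 CPM with FcMR. The arms overlapped at both times. At 12 h they were separate, at 215, 235 and 241 CPM with isotype and 112, 206 and 212 CPM with FcMR, where the lowest was the FcMR library with the tilt of -0.75. The differences of 0.05, -0.38 and -0.45 at 4, 12 and 24 h, each with an SE of 0.32, were not called (edgeR, adjusted p = 0.945, 0.521 and 0.388). With the GC correction the 24 h difference was -0.27 ± 0.08 (adjusted p = 0.0108).

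Akt2 (ENSMUSG00000004056.15, chromosome 7, 27591552 to 27640826, plus strand) is the Akt kinase best known for insulin-stimulated glucose uptake. It was at 56.2, 47.1 and 87.5 CPM with isotype and at 79.3, 83.1 and 77.1 CPM with FcMR at 4 h. At 24 h it was at 67.5, 68.1 and 65.4 CPM with isotype and at 51.2, 44.9 and 66.7 CPM with FcMR. The arms overlapped at both times, and the differences of 0.32, -0.19 and -0.31 were not called (edgeR, adjusted p = 0.25, 0.581 and 0.275). With the GC correction they were 0.25 (adjusted p = 0.0175), -0.10 (adjusted p = 0.375) and -0.21 (adjusted p = 0.0375), and the change between times was called (adjusted p = 0.0082). Without isotype 4 h replicate 3 the 4 h difference was 0.63 (adjusted p = 0.00833) and the change between times had an adjusted p of 0.00995. Of the 31-base words of Akt2 transcripts, 16% also occur elsewhere, mostly in the pseudogene Akt2-ps, which has no row in the table. Every gene in the table sums to at least 10 counts over the libraries, so a copy with fewer could have been left out. Whether the counts of Akt2 include reads of that copy was not tested.

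**Figure D2:**
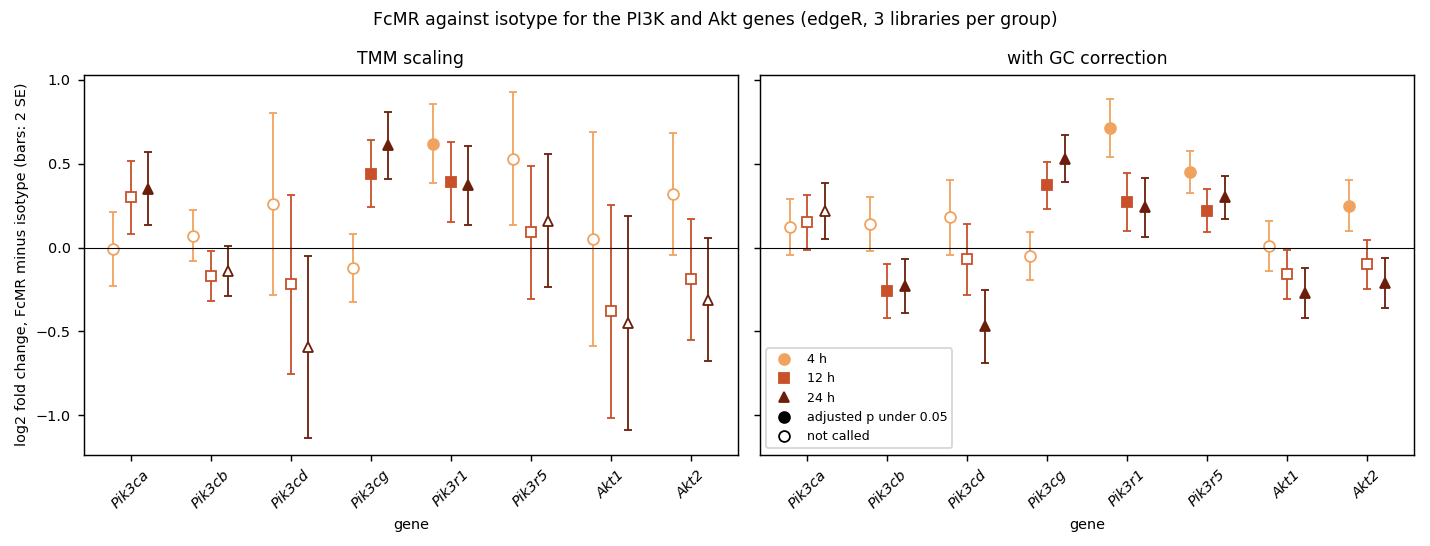
FcMR minus isotype difference of each gene (log2, bars of 2 SE) at 4, 12 and 24 h, with TMM scaling (left) and with the GC correction added (right); filled symbols have an edgeR adjusted p under 0.05. Pik3r1 at 3 times and Pik3cg at 12 and 24 h are filled in both panels, and the bars of Pik3cd, Pik3r5, Akt1 and Akt2 are shorter on the right.

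The 8 genes differed in how strongly and in which direction they followed the tilt. Pik3ca (41.1% GC), Pik3r1 (44.8%), Pik3cb (46.5%) and Pik3cg (48.3%) had coefficients of variation of at most 18.6% between replicates. Those of Akt2 (55.2%), Pik3r5 (56.3%), Pik3cd (57.2%) and Akt1 (59.3%) reached up to 52.7%. In the isotype 4 h, FcMR 12 h and FcMR 24 h groups, each of these GC-rich genes was lowest in the library with the lowest tilt. The GC-poor genes moved less and the other way: with isotype at 4 h, Pik3cg and Pik3ca were highest, at 97.8 and 95.2 CPM, in the library with the tilt of -1.65 and lowest, at 68.7 and 71.7 CPM, in that with the tilt of 0.66. In the isotype 4 h group the coefficient of variation was 52.7% for Akt1 and 6.5% for Pik3cb. In the isotype 24 h group, where the tilts lay between -0.10 and -0.05, it was 3.29% for Akt1. There it was 2.1%, 4.63% and 3.85% for Akt2, Pik3r5 and Pik3cd, below the 7.36% of Pik3r1. A GC correction, a smooth curve of each library's log2 ratio on transcript GC added as an offset, brought the Akt1 value at isotype 4 h to 8.9% and that at FcMR 24 h from 40.2% to 8.8%. It also brought Pik3cg at isotype 4 h from 17.8% to 6.21% and Pik3r1 at FcMR 24 h from 18.6% to 7.32%. Other values rose with the correction. Pik3cb went from 6.5% to 10.8% at isotype 4 h and from 5.34% to 10.7% at FcMR 24 h. Pik3cg went from 3.62% to 6.67% at FcMR 12 h, so the correction did not narrow the spread of every gene in every group. It was fitted over the 13440 genes with a GC value, so it would also remove any real difference that runs along GC content. With it, 3, 4 and 7 of the 8 genes were called after FcMR at 4, 12 and 24 h, against 27.4%, 24.6% and 29% of all genes. At 24 h these were Pik3cg, Pik3r1 and Pik3r5, which were higher, and Pik3cb, Pik3cd, Akt1 and Akt2, which were lower.

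**Figure D3:**
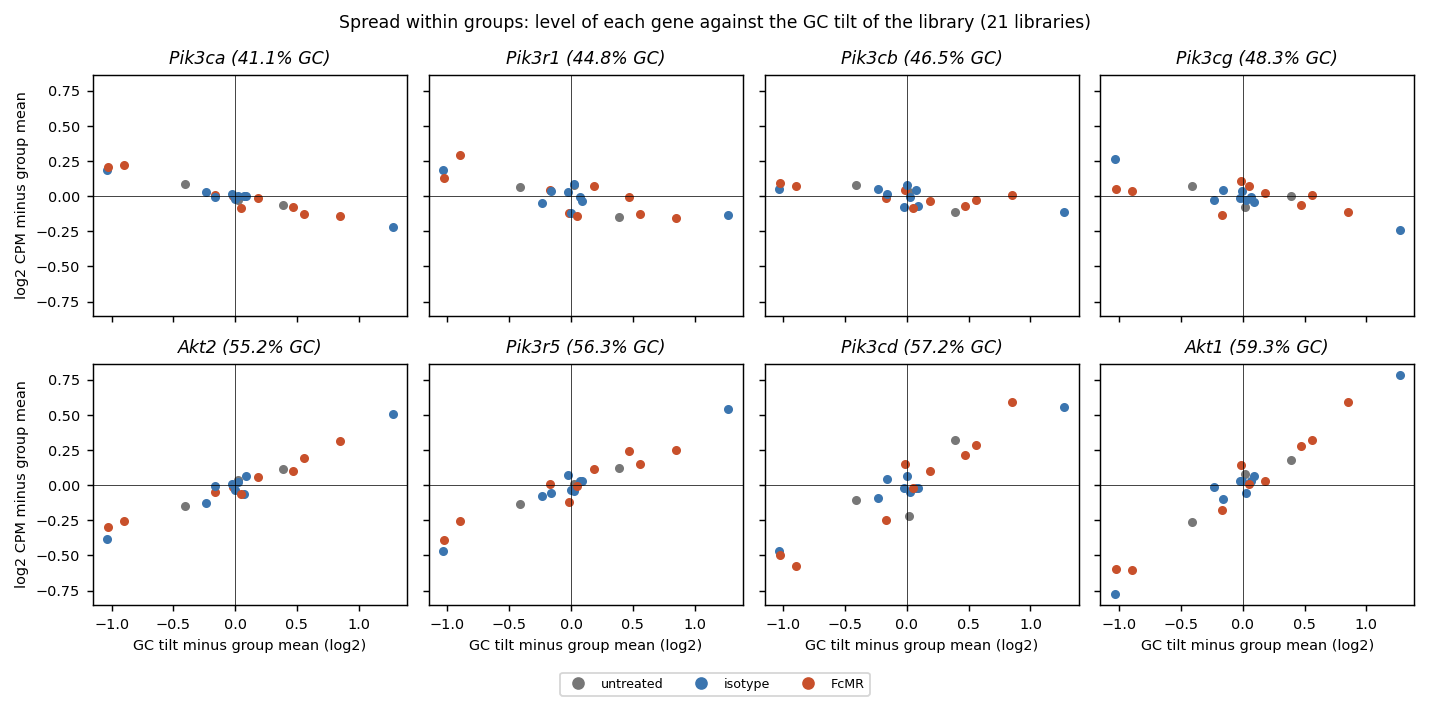
Within-group deviation of each gene (log2 CPM minus its group mean, vertical axis) against the within-group deviation of the library's GC tilt (horizontal axis), for 21 libraries and genes ordered by GC content. The 4 GC-rich genes in the lower row climb with the tilt, and the 4 in the upper row are flat or slope slightly down.

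Isotype-treated libraries also differed from the untreated ones at 0 h. Pik3r5 had the largest difference, falling from 512, 427 and 473 CPM in untreated libraries to 313, 331 and 331 CPM at 12 h and 185, 171 and 172 CPM at 24 h with isotype. The groups did not overlap, and the fitted changes were -0.53 ± 0.20 and -1.42 ± 0.20 (log2, SE; adjusted p = 0.039 and 1.93e-05, edgeR). The 12 h call was lost without untreated replicate 1 or 3 (adjusted p = 0.118 and 0.0837) or isotype 12 h replicate 1, 2 or 3 (0.108, 0.0861 and 0.0842), and without a filter (0.0611). Pik3r1 fell by 0.46 and 0.64 at 12 and 24 h (adjusted p = 0.00474 and 0.00032) and did not pass at 4 h (0.18, adjusted p = 0.268). Pik3cb rose by 0.47 at 4 h and 0.44 at 24 h (adjusted p = 9.56e-05 and 0.000126), from 126, 144 and 139 CPM untreated to 196, 196 and 175 CPM and then 176, 185 and 196 CPM. Its 4 h change was 0.26 with the GC correction (adjusted p = 0.0154). Pik3cg fell by 0.31 and 0.37 at 4 and 12 h (adjusted p = 0.0239 and 0.00594) and stood 0.07 above untreated at 24 h (adjusted p = 0.59). The 4 h call was lost without untreated replicate 1 or 2 (adjusted p = 0.055 and 0.0825) or isotype 4 h replicate 1 or 3 (0.0954 and 0.13) or with only the compared libraries (0.204), while with the GC correction the value was -0.48 (adjusted p = 2.28e-05); the 12 h call was lost without isotype 12 h replicate 3 (0.0541). Without isotype 4 h replicate 3, Pik3cg was no longer called at 4 h and 5 others were, Pik3ca higher (0.29) and Pik3cd (-0.90), Pik3r5 (-0.43), Akt1 (-1.23) and Akt2 (-0.70) lower, 6 of 8 with Pik3cb. In all, 2, 3 and 3 of the 8 were called at 4, 12 and 24 h, against 35.6% (20.4% higher, 15.2% lower), 41.6% (22% higher, 19.6% lower) and 42.2% (21.3% higher, 20.9% lower) of all genes. These shares are no higher than the background. After the GC correction 4, 7 and 6 of the 8 were called, against 43.1%, 51.8% and 53.8% of all genes. Added to the calls above were Akt1 at all 3 times (-0.27, -0.38 and -0.41), Akt2 at 12 and 24 h (-0.28 and -0.25), Pik3cd at 12 and 24 h (0.40 and 0.29), Pik3cb at 12 h (0.24) and Pik3r5 at 4 h (0.19), with adjusted p from 0.000145 to 0.0292. Akt1 at 4 h was also called in settings without the correction. In all, 6 of 11 settings called it, counting the main fit, which did not.

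FcMR against the same untreated libraries gave the other side of these courses. Pik3cg fell by 0.43 at 4 h (adjusted p = 0.00187), was 0.07 above untreated at 12 h (adjusted p = 0.615) and rose by 0.68 at 24 h (adjusted p = 2.06e-05, edgeR). Pik3r1 rose by 0.79 at 4 h (adjusted p = 2.52e-05) and was at -0.07 and -0.27 at 12 and 24 h (adjusted p = 0.659 and 0.0663). Without untreated replicate 1 or FcMR 24 h replicate 2, the 24 h value was -0.34 and -0.39 and was called (adjusted p = 0.0425 and 0.0091), as it was with the GC correction (-0.48, adjusted p = 9.92e-05) and the replicate block (-0.28, adjusted p = 0.0341). Pik3r5 fell by 1.25 at 24 h (adjusted p = 5.14e-05), so its decline was present in both arms. Pik3cb rose by 0.54 and 0.30 at 4 and 24 h (adjusted p = 1.25e-05 and 0.00276), and with the GC correction the 24 h value was 0.11 and was not called (adjusted p = 0.237). Akt1 and Akt2 fell by 1.19 and 0.64 at 24 h (adjusted p = 0.00514 and 0.00727), and the call of Akt2 was lost without FcMR 24 h replicate 2 (-0.47, adjusted p = 0.0538). With isotype the same genes stood at -0.74 and -0.33 at 24 h (adjusted p = 0.0716 and 0.161). Their GC-corrected 24 h changes were -0.67 and -0.46 with FcMR (adjusted p = 2.92e-07 and 2.66e-05) and -0.41 and -0.25 with isotype (adjusted p = 0.000145 and 0.00877). At 12 h none of the 8 was called by edgeR or limma-voom, 1 by DESeq2 (Pik3r5), and 2 had an unadjusted p under 0.05. At 4, 12 and 24 h, 3, 0 and 5 of the 8 were called, against 48.2% (22.3% higher, 25.9% lower), 48.1% (24.7% higher, 23.4% lower) and 51.4% (26% higher, 25.4% lower) of all genes. After the GC correction 5, 4 and 5 were called, against 57.9%, 58.9% and 60% of all genes; the 4 at 12 h were Pik3cd (0.33), Pik3r5 (-0.44), Akt1 (-0.54) and Akt2 (-0.38). At 4 h Pik3r5 (0.64) and Akt1 (-0.26) were added. The FcMR and isotype courses share the untreated libraries, so their values stand side by side and are not independent.

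**Figure D4:**
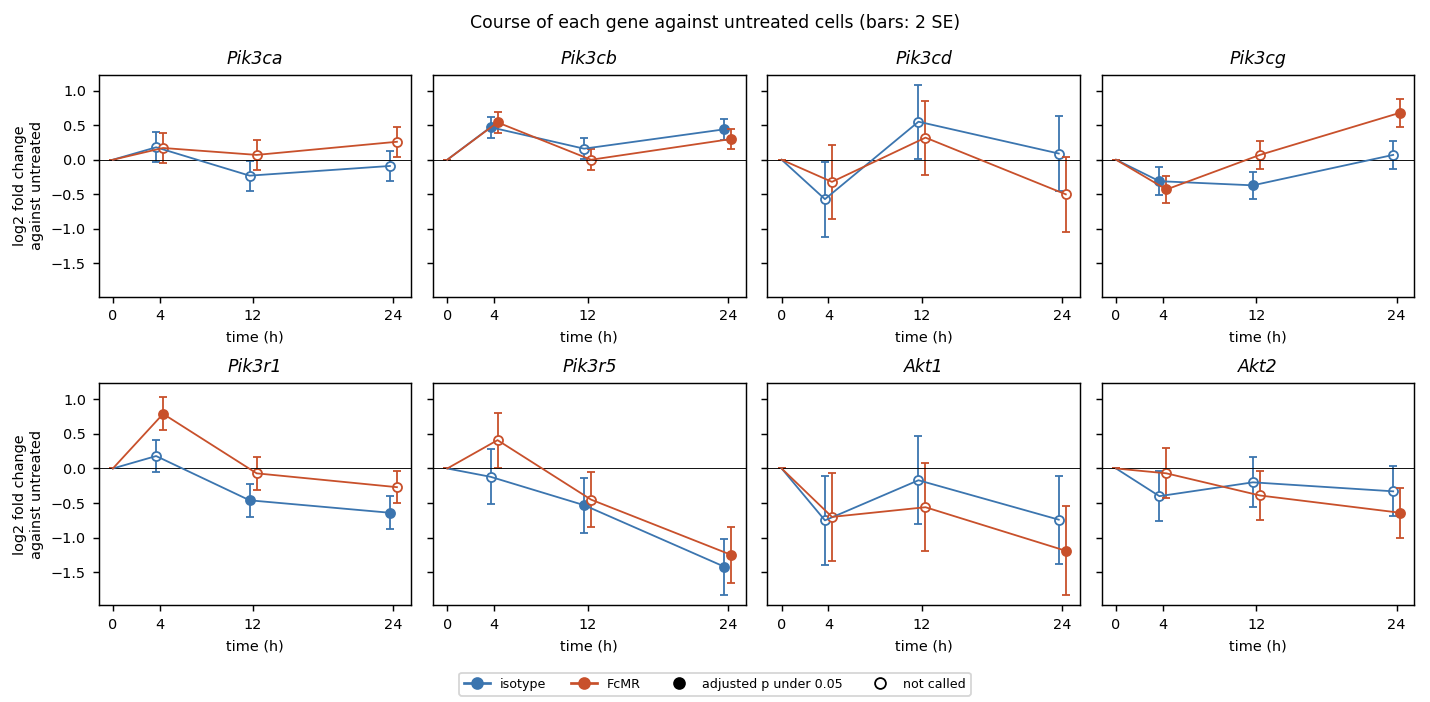
Change of each gene against untreated cells (log2, bars of 2 SE) over 4, 12 and 24 h with isotype and with FcMR; filled points have an edgeR adjusted p under 0.05. Pik3cg climbs to 0.68 with FcMR while it returns to 0.07 with isotype, and Pik3r5 ends at -1.42 and -1.25 in the isotype and FcMR arms.

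Per kilobase of transcript, Pik3r5 and Akt1 were the most abundant of the 8 in untreated cells. With the median length of the coding transcripts, Akt1 was at 236 ± 36.4 and Pik3r5 at 108 ± 9.71 CPM per kb (SD, n = 3), followed by Pik3r1 at 79.7, Akt2 at 74.7, Pik3cb at 38.4, Pik3cd at 29.8, Pik3cg at 22 and Pik3ca at 11.1. The libraries of Pik3r1 and Akt2, with SD of 6.89 and 6.9, do not separate those neighbours. That length is pulled down by short annotated transcripts of Akt1, Akt2 and Pik3r1. With the longest coding transcript, Pik3r5 was at 108, Akt1 at 96.6 ± 14.9, Pik3cd at 22.6, Pik3cb at 21.1, Pik3r1 at 20.3, Akt2 at 18.5, Pik3cg at 17.3 and Pik3ca at 8.31 CPM per kb, so the same pair leads, Pik3cg and Pik3ca stay lowest, and the order in between changes. On that length the genes from Pik3cd to Pik3cg, with SD of 0.88 to 4.63, follow each other within their spread, as do Pik3r5 and Akt1. At 24 h with FcMR, Pik3cg reached 27.7 ± 1.91 CPM per kb on that length, beside 18.2 ± 0.44 with isotype.

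Over the 21 libraries, the log2 levels of Akt1 and Akt2 had a Pearson r of 0.89 and those of Pik3ca and Pik3cd one of -0.89. The class IB partners Pik3cg and Pik3r5 had an r of -0.71. Among 8811 genes with enough expression, the closest course to that of Pik3cg was that of Golgb1, a Golgi protein (r = 0.92), and Fcgr2b, the inhibitory Fc receptor, was also among the 3 closest (r = 0.90). Pik3r1 was closest to Fgl2, Rab8b and Arf4 (r = 0.98, 0.97 and 0.97) and Pik3r5 to Ralgds, Mafk and Cd74 (r = 0.98, 0.97 and 0.97). Akt1 was closest to Snx8, Lman2 and Tbrg4 (r = 0.98, 0.98 and 0.97). These have 58.3%, 52.8% and 56.9% GC, beside 59.3% for Akt1. GC content was not alike in every case: the closest gene to Pik3cb (46.5% GC) was Mbd2, with 59.2% GC (r = 0.90). The libraries share groups, depth and GC tilt, so these values describe likeness in this set and no more.

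The other 58 genes of the pathway lists place the 8 in context, and 55 of them were tested. After FcMR, 7 were called higher and 9 lower at 4 h, 2 higher and 8 lower at 12 h, and 7 higher and 9 lower at 24 h. That is 16, 10 and 16 of 55, against 17.7%, 16.1% and 20.9% of all genes, the background for every list below as well; nothing particular to the lists is read from these counts. Their median differences were -0.04, -0.10 and 0.03. At 12 h, 6 genes were called without FcMR replicate 1, isotype replicate 1 or isotype replicate 3. Of the 7 other PI3K and Akt subunits tested, 1 was called after FcMR. This was Pik3r6, the alternative partner of the gamma subunit, at 29, 25.8 and 28.2 CPM with isotype and 38.8, 35.4 and 41.1 CPM with FcMR at 24 h (0.47, adjusted p = 0.00534, edgeR). Like Pik3r5, Pik3r6 fell with isotype, by 1.60 at 24 h (adjusted p = 3.39e-09).

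Among the 9 phosphatases, Inpp5d, which encodes SHIP1, the blood-cell phosphatase that removes the 5-phosphate of PIP3, was lower after FcMR at every time. It was at 76.8, 82.1 and 81.6 CPM with isotype and 55.4, 46 and 42.1 CPM with FcMR at 4 h, and at 187, 175 and 188 CPM against 135, 108 and 129 CPM at 24 h. The arms were separate at all 3 times, and the differences were -0.74, -0.47 and -0.57 (adjusted p = 9.99e-05, 0.00366 and 0.000621, edgeR). The 12 h call was lost with the authors' factors (-0.37, adjusted p = 0.0882). Inpp4a, which acts on a breakdown product of PIP3, was lower at 12 and 24 h (-0.69 and -0.60, adjusted p = 0.000676 and 0.00189). In all, 2 of the 9 were higher and 2 lower at 4 h, and 2 were lower at 12 h and 2 at 24 h. Inppl1, which encodes SHIP2, rose with isotype by 0.82, 1.76 and 1.95 at 4, 12 and 24 h (adjusted p = 0.00789, 4.38e-06 and 1.38e-06), and its 4 h call was lost without isotype 4 h replicate 3 (0.52, adjusted p = 0.0587) or with only the compared libraries (0.0739).

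Among the 6 adaptors and antagonists, Pik3ap1 (BCAP, which links Toll-like receptors and other receptors to PI3K) turned from higher to lower. It was at 145, 129 and 213 CPM with isotype and 279, 264 and 243 CPM with FcMR at 4 h, and at 286, 266 and 275 CPM against 155, 135 and 193 CPM at 24 h. The arms were separate at both times and overlapped at 12 h, with differences of 0.69, 0.05 and -0.78 (adjusted p = 0.0107, 0.908 and 0.0035, edgeR). Irs2, which couples insulin and cytokine receptors to PI3K, was at 8.47, 9.2 and 18.5 CPM with isotype and 24.1, 24.8 and 22.9 CPM with FcMR at 4 h (0.97, adjusted p = 0.0157). That call was lost without isotype 4 h replicate 1 or 2 (0.79 and 0.86, adjusted p = 0.0723 and 0.0589). With only the compared libraries the 4 h calls of Pik3ap1 and Irs2 were lost (adjusted p = 0.0762 and 0.0996).

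Of the 8 genes around the kinases that activate Akt, Pdpk1, which encodes PDK1, was not called (-0.27, -0.06 and 0.01, adjusted p = 0.146, 0.839 and 0.988, edgeR). It was called lower at 4 h with the GC correction (-0.20, adjusted p = 0.0214). Prr5l, which encodes a protein bound to mTORC2, was higher at 4 h (0.40) and lower at 12 h (-1.02), where the isotype libraries were at 27.7, 29.2 and 25.3 CPM and the FcMR libraries at 12.8, 14.1 and 13.5 CPM. At 24 h its difference was -0.41 (adjusted p = 0.0102, 1.33e-06 and 0.00638 at the 3 times). The 4 h call was lost without FcMR 4 h replicate 2 (0.33, adjusted p = 0.0794). Deptor, an inhibitor of mTOR complexes, differed by -0.65, -0.49 and -0.75 (adjusted p = 0.0188, 0.0658 and 0.00397), and the 4 h call was lost without FcMR 4 h replicate 2 or 3 (0.0661 and 0.121) or isotype 4 h replicate 1 or 2 (0.0665 and 0.167).

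Of the 19 Akt targets and mTORC1 genes, 1 was higher and 3 lower after FcMR at 4 h and at 12 h, and 3 were higher and 3 lower at 24 h; the shares over all genes were 17.7%, 16.1% and 20.9%. The FoxO genes, whose products Akt keeps out of the nucleus, moved in different directions. Foxo1 was at 12.6, 10.6 and 11.8 CPM with isotype and 16.4, 19.5 and 18.9 CPM with FcMR at 24 h, and its differences were -0.04, 0.44 and 0.65 (adjusted p = 0.868, 0.0135 and 0.00058, edgeR). The 12 h call of Foxo1 was lost without FcMR 12 h replicate 1 or 2 (0.0824 and 0.0524) or isotype 12 h replicate 1 (0.0923). Foxo4 was lower at all 3 times (log2 differences of -0.75, -0.59 and -0.67, adjusted p = 0.0165, 0.0406 and 0.0166). Its calls were lost at 4 h without FcMR replicate 3 or isotype replicate 1 or 3, at 12 h without FcMR replicate 1 or isotype replicate 1, 2 or 3, and at 24 h without FcMR or isotype replicate 2, with adjusted p from 0.0543 to 0.164. Tbc1d4, an Akt substrate of glucose transporter traffic, was at 106, 113 and 109 CPM with isotype and 170, 225 and 147 CPM with FcMR at 24 h (0.73, adjusted p = 0.00176).

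The 6 FoxO target transcripts did not move as one. At 4 h 1 was higher and 2 lower, at 12 h 1 was higher and 2 lower, and at 24 h 3 were higher and 1 lower. Fbxo32, an atrophy-linked ubiquitin ligase gene, was at 13.5, 9.38 and 9.38 CPM with isotype and 4.96, 4.55 and 4.66 CPM with FcMR at 4 h, and at 23.2, 22 and 22.5 CPM against 34.8, 40.7 and 30.4 CPM at 24 h. It was thus lower at 4 h and higher at 24 h without overlap (-1.19, -0.47 and 0.65, adjusted p = 4.26e-05, 0.0267 and 0.00197, edgeR), and its 12 h call was lost without FcMR 12 h replicate 2 or 3 (0.121 and 0.0797) or isotype 12 h replicate 3 (0.15). Sesn1, a stress-response gene, was lower throughout (-1.36, -0.47 and -1.10, adjusted p = 5.35e-06, 0.022 and 7.19e-06), with the 12 h call lost without FcMR 12 h replicate 3 (0.125) or isotype 12 h replicate 1 or 3 (0.116 and 0.0812). Ccng2, a cyclin gene linked to cell-cycle arrest, was higher throughout (0.77, 0.52 and 0.49, adjusted p = 0.000879, 0.0144 and 0.0202). Its 12 h call was lost without FcMR 12 h replicate 1 (0.107) or isotype 12 h replicate 1 or 3 (0.0517 and 0.0825), and its 24 h call without FcMR 24 h replicate 2 (0.167) or isotype 24 h replicate 1 or 3 (0.053 and 0.109).

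**Figure D5:**
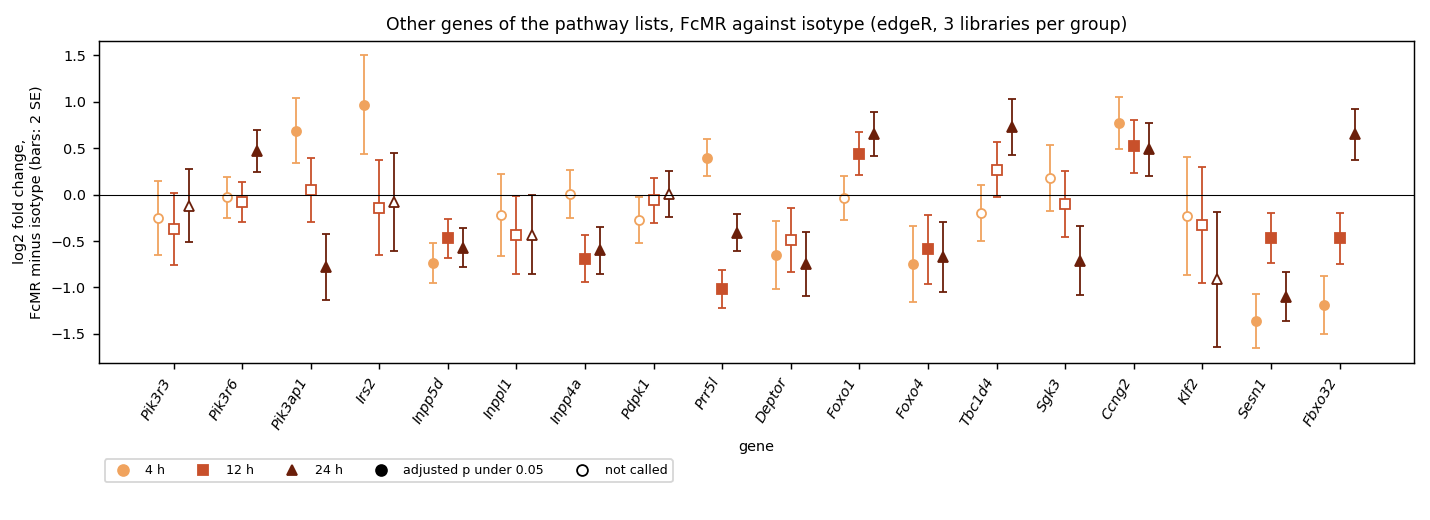
FcMR minus isotype difference (log2, bars of 2 SE) at 4, 12 and 24 h for 18 genes of the other pathway lists; filled symbols have an edgeR adjusted p under 0.05. Inpp5d and Sesn1 lie below 0 at all 3 times and Ccng2 above, while Pik3ap1 and Fbxo32 lie on opposite sides of 0 at 4 and 24 h.

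With isotype, 11, 14 and 15 of the 55 other pathway genes were higher than in untreated cells and 12, 12 and 15 were lower at 4, 12 and 24 h. That is 23, 26 and 30 of 55, shares above the 35.6%, 41.6% and 42.2% called over all genes. Nothing particular to the lists is read from these counts. Klf2, a FoxO target in lymphocytes, fell by 1.27 and 1.81 at 12 and 24 h (adjusted p = 0.00248 and 0.000206, edgeR). Pik3r3 rose by 1.37 at 4 h (adjusted p = 4.55e-05) from 1.65, 2.16 and 2.37 CPM to 5.74, 5.05 and 5.33 CPM. Sgk3, an Akt-like kinase gene, rose by 1.25 at 4 h (adjusted p = 3.51e-05), and at 24 h it was lower after FcMR than after isotype (-0.71, adjusted p = 0.00953), a call lost without FcMR 24 h replicate 3 (-0.52, adjusted p = 0.053).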

How the data were processed

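Single-end 75 bp RNA-seq libraries from 21 samples were used. The table the authors deposited as raw holds whole numbers; kallisto 0.44.0, CASAVA 1.8.2, DESeq2 and GRCm38 are named, without a role, per the submitters' processing notes. Its values were read as estimated counts, deposited by the authors, and no rounding was needed; the test planned for plain counts was kept. The normalized table the authors deposited is a linear signal equal to the estimated count divided by a factor per gene and library; it served only to form those factors. Gene symbols, positions, lengths and GC content came from GENCODE M21 (GRCm38).

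All 21 libraries were fitted together with edgeR 4.0.16 (R 4.3.3): TMM factors, filterByExpr with a minimum count of 10, quasi-likelihood tests and Benjamini-Hochberg adjustment over 13468 genes, with a call at an adjusted p under 0.05. The test of a changing difference compared FcMR minus isotype at 3 times jointly. CPM values use TMM factors, except those of the cell type markers and of the count floor of the smallest library, which use the plain library total. Alternatives were RLE factors, other filters, DESeq2 1.42.0, limma-voom 3.58.1, the authors' factors, only the compared libraries, a replicate block, a GC correction (loess span 0.5) and leaving out libraries. The scripts were tested on simulated data. Members and gene lists were chosen with earlier results of these data known. The text names the 8 members, from the other lists the 3 highest and 3 lowest called genes per FcMR against isotype comparison and the 2 highest and 2 lowest per isotype against untreated comparison (average log2 CPM of at least 1), Inpp5d, Pik3ap1 and Pdpk1, and genes from the 3 closest to a member, of which some are not reported here; Akt2-ps, Gm12992 and Gm12978 are named as copies. Libraries of one group differed by more than counting noise (the chi-square of every pair was at least 3.09 times its degrees of freedom), so none was merged.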

Additional observations from a re-analysis of the deposited data

Results flagged for a closer look

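For 9 of the 27 genes chosen by name the FcMR minus isotype difference changed between 4, 12 and 24 h in edgeR's joint test, against 11% of all genes. Most of those outside the 8 members were taken as the highest or lowest at a single time, which favours such a change, so their number is a description and no support. Among the 8 members this was Pik3cg (adjusted p = 0.00571), with differences of -0.12, 0.44 and 0.61. Among the other pathway genes named, the smallest adjusted p were those of Prr5l (1.71e-05), Fbxo32 (5.05e-05) and Pik3ap1 (0.00258). The others were Sesn1 (0.0127), Tbc1d4 (0.0229), Inpp4a (0.0266), Foxo1 (0.0267) and Pik3r6 (0.0441). The calls of Foxo1, Pik3r6 and Tbc1d4 were lost under most single-library omissions or several settings, with adjusted p up to 0.178, 0.129 and 0.0919. That of Inpp4a was lost without FcMR 4 h replicate 2 or isotype 4 h replicate 1 (0.0945 and 0.0851) and with the authors' factors (0.245), that of Pik3cg without FcMR 4 h replicate 3 (0.0744), and that of Sesn1 without FcMR 12 h replicate 2 (0.0509) or a filter (0.0525).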

How the results depend on the processing

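The calls of Pik3cg at 12 and 24 h held under every alternative run, and that of Pik3r1 at 4 h under every alternative except the authors' factors. The number of members called after FcMR at 4 h (1) was 2 with RLE factors or DESeq2, 3 without both libraries whose numbers stand out of title order (FcMR 12 h replicate 1 and isotype 4 h replicate 3) and 1 to 3 when single libraries were left out. At 12 h (2) it was 1 with the authors' factors, 1 without both those libraries and 1 to 2 when single libraries were left out. At 24 h (3) it was 1 with RLE factors, without an expression filter, with the authors' factors or with only the compared libraries, and 1 to 4 when single libraries were left out.

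For isotype against untreated at 4 h (2) the number was 1 with only the compared libraries, 6 without both libraries out of order and 1 to 6 over single omissions. At 12 h (3) it was 6 with only the compared libraries, 5 without both libraries and 1 to 5 over single omissions, and at 24 h (3) it was 5, 5 and 3 to 5. For FcMR against untreated it was 6 at 4 h (3) with only the compared libraries, 5 without both libraries and 3 to 5 over single omissions. At 12 h (0) it was 1 with DESeq2, 2 with the authors' factors and 0 over single omissions, and at 24 h (5) it was 5 to 7 over single omissions. For the change between times (1) it was 5 without both libraries and 0 to 5 over single omissions. The cause of these changes was not tested.

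The GC correction raised the number of members called to 3, 4 and 7 after FcMR at 4, 12 and 24 h, to 4, 7 and 6 for isotype against untreated, to 4 for FcMR against untreated at 12 h and 5 at 4 h, and to 5 for the change between times. The shares of all genes called rose too, to 27.4%, 24.6% and 29%, then 43.1%, 51.8% and 53.8%, then 58.9% and 57.9%, and 21%. Together with a replicate block it gave 3, 4 and 7 after FcMR and 4, 7 and 6 for isotype against untreated. For FcMR against untreated it gave 5 at 4 h and 4 at 12 h, and for the change between times 5. It turned Pik3r5 in isotype against untreated at 4 h from -0.12 to 0.19 (adjusted p = 0.0232), and with the block to 0.19 as well. With the block and the correction, Ccng2 in FcMR against untreated at 24 h was at -0.20 (adjusted p = 0.0454).

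Same-numbered libraries deviated with correlations from -0.37 to 0.34, and in no comparison did all 3 pass 0.1, so the numbers were not taken to pair libraries. The replicate block alone gave 1, 2 and 3 members after FcMR, 3, 3 and 3 for isotype against untreated, 3, 0 and 7 for FcMR against untreated and 1 for the change between times.

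Of the 55 other pathway genes, 16 called at 4 h became 25 with the GC correction (also with the block), 10 without a filter and 5 with only the compared libraries. The 10 at 12 h became 16 and 6 with the correction and with only the compared libraries. The 12 with a change between times became 20 with the correction (21 with the block) and 5 to 7 with RLE factors, no filter, the authors' factors, only the compared libraries or 9 of the single omissions. Over all genes, 2390, 2169 and 1484 calls after FcMR at 4 h, at 12 h and between times became 3694, 3307 and 2823 with the correction and 3825, 3457 and 3025 with the block added. At 4 h there were 868 calls with only the compared libraries. Without a filter the median of all genes shifted by 0.12 after FcMR and by -0.12 for isotype against untreated at 4 h. Levels per kb moved beyond their SD in 46 of 56 cases with the longest transcript. The smallest library allows 3 counts to stand for 0.542 CPM, far below the members' levels.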
